A study of Mus musculus with 3 samples.

Results

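The unfolded protein response and the amino acid stress response were followed through 44 genes in C2C12 cells, an immortalized mouse myoblast line that fuses into myotubes when serum is withdrawn. The genes were taken by symbol from a list of ER chaperones, ER stress sensors and targets of the transcription factor ATF4, by a rule that uses no measured value, and 44 of the 23238 symbols in the count files matched. All 44 reached a CPM of 1, where CPM are counts scaled to a common library size, in at least 1 library, as did 13169 of all symbols. Once nearly confluent, the cells were switched for 2 days to myogenic induction medium containing horse serum, on 1 of 3 substrates: a tissue culture plate (TCP), a hydrogel of methacrylated gelatin at 15% w/v (GelMA), or the same gelatin combined with 1% w/v poly(sodium 4-styrenesulfonate) (GelMA-PSS), a negatively charged polymer that mimics heparin. All 3 groups shared the cell line, the medium and the time. Each substrate had 1 library, so the ratios below compare libraries, no p-value could be made, and the intervals given cover counting error only. The study asked how the heparin-mimicking substrate alters the transcripts of differentiating myoblasts, and GelMA against TCP is the comparison without PSS.

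The libraries held 119799095 (TCP), 87071144 (GelMA) and 192171443 (GelMA-PSS) counts. CPM were computed on totals scaled by the trimmed mean of M-values (TMM), and ratios were taken as differences of log2(CPM + 1), which understates the difference of weakly expressed genes. All 8 muscle differentiation markers checked passed 1 CPM, with summed levels of 26591 CPM in TCP, 19658 in GelMA and 16573 in GelMA-PSS. Without Myh3, the embryonic myosin heavy chain (10182, 6355 and 3037 CPM), the sums were 16409, 13302 and 13536. Of the 8, 7 were lower in GelMA-PSS than in TCP, 7 in GelMA than in TCP and 4 in GelMA-PSS than in GelMA (47.2%, 51.7% and 46.9% of all genes). With the correction for transcript length and GC content given below, these were 7, 7 and 6 (50.3%, 50.7% and 50.2% of all genes). The median log2 ratio of GelMA-PSS to GelMA went from 0.02 to -0.30. The part of these markers in the ratios below was not tested. Of 16 markers of endothelial, blood, epithelial and adipocyte cells 2 passed 1 CPM (Cd68 and Cdh1), and the summed levels of the 4 lists ranged from 0.0662 to 10.3 CPM, with Pecam1, Ptprc, Epcam and Adipoq under 1 CPM in every library. In bulk samples such as these, fewer cells of a type and less RNA per cell cannot be told apart.

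The endoplasmic reticulum (ER) folds secreted and membrane proteins, and unfolded proteins that build up there are sensed by IRE1 (encoded by Ern1), ATF6 and PERK (encoded by Eif2ak3). IRE1 splices the Xbp1 transcript and ATF6 is cleaved, and the resulting factors switch on chaperone and ER-associated degradation genes. PERK, and GCN2 (encoded by Eif2ak4) in amino acid shortage, phosphorylate the translation factor eIF2α, which slows translation but favours that of ATF4. ATF4 in turn activates genes for serine, one-carbon and asparagine synthesis, amino acid transport and tRNA charging, and Ddit3, which encodes CHOP. ER stress signalling is known to accompany the differentiation of myoblasts. Counts per gene do not show splicing, cleavage, phosphorylation or translation, so the activity of the sensors was not measured.

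The 2 arms are read from the DNA through different elements, and the promoters of the group were therefore searched. The window held the bases from 250 before to 50 after the RefSeq transcription start (mouse build GRCm38.p6), and 39 of the 44 genes had an entry (all but Hyou1, Manf, Atf6, Slc7a5 and Wars). The ER stress element was CCAAT and CCACG separated by 9 bases on either strand. It was present for 6 of the 39 genes (15.4%) and for 37 of all 27025 genes with an entry (0.137%). The C/EBP-ATF composite element, TGATG followed by any base and AA on either strand, was present for 9 of the 39 (23.1%) and for 1219 of the 27025 (4.51%). No promoter of the group held both. These matches describe the letters only, and binding was not measured. The promoters of Hspa5 and Asns are shown because these genes are the standard reporters of the arms, with the bases of the element that the search required or matched in capitals, over the 250 bases before the start and in the direction of the gene.
Hspa5, chr2:34771840-34772089, plus strand: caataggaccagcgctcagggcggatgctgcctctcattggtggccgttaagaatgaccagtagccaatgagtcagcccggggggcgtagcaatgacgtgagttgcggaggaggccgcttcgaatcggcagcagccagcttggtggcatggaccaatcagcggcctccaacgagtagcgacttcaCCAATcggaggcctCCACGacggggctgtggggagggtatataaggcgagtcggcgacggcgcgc
Asns, chr6:7693210-7693459, minus strand: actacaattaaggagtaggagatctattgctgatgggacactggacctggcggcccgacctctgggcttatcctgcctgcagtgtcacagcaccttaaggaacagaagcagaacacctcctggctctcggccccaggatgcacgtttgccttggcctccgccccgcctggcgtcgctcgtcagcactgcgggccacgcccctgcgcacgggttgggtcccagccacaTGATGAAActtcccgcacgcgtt

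All the ER stress elements found are set out next, since they mark the members that share this element. Capitals are the required letters and the distance runs from the start site to the element.
Creld2, 126 bases before: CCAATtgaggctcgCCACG
Dnajc3, 105 bases before: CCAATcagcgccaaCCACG
Hsp90b1, 107 bases before: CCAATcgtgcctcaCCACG
Hsp90b1, 212 bases before: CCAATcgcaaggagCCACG
Hspa5, 65 bases before: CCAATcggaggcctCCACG
Pdia6, 98 bases before: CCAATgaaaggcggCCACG
Syvn1, 44 bases before: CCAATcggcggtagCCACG
Within the 9 bases between the required letters the sites differed from gene to gene. The members that held a C/EBP-ATF composite element are shown for the same reason, with the whole element in capitals.
Aars, 112 bases before: TGATGCAA
Aars, 9 bases after: TGATGAAA
Asns, 23 bases before: TGATGAAA
Atf3, 110 bases before: TGATGCAA
Chac1, 193 bases before: TGATGCAA
Gars, 30 bases before: TGATGAAA
Herpud1, 112 bases before: TGATGCAA
Nupr1, 110 bases before: TGATGCAA
Trib3, 14 bases after: TGATGTAA
Vldlr, 200 bases before: TGATGCAA
The holders of the ER stress element were 5 chaperone or folding genes and Syvn1, a ubiquitin ligase of the ER membrane. The holders of the composite element came from several roles, from tRNA synthetases (Aars, Gars) to transcription factors (Atf3, Nupr1).

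Both fold thresholds in the study's text, 2-fold and 1.5-fold, were applied. At 2-fold 1 of the 44 genes differed, in 1 of the 3 comparisons. In GelMA-PSS against GelMA 0 genes of the group were higher and 0 lower, where 1.77% and 2.33% of all genes were. In GelMA-PSS against TCP 0 were higher and 1 was lower (3.72% and 3.13% of all genes). In GelMA against TCP 0 were higher and 0 lower (0.706% and 0.296% of all genes). At 1.5-fold, 4 genes of the group were higher and 3 lower in GelMA-PSS than in GelMA (11.0% and 10.8% of all genes), 1 was higher and 5 were lower than in TCP (13.2% and 11.5%), and in GelMA 2 were higher and 1 was lower than in TCP (3.50% and 2.12%). Shares of this size amount to few genes among 44, and the counts are no more than a description.

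**Figure D1:**
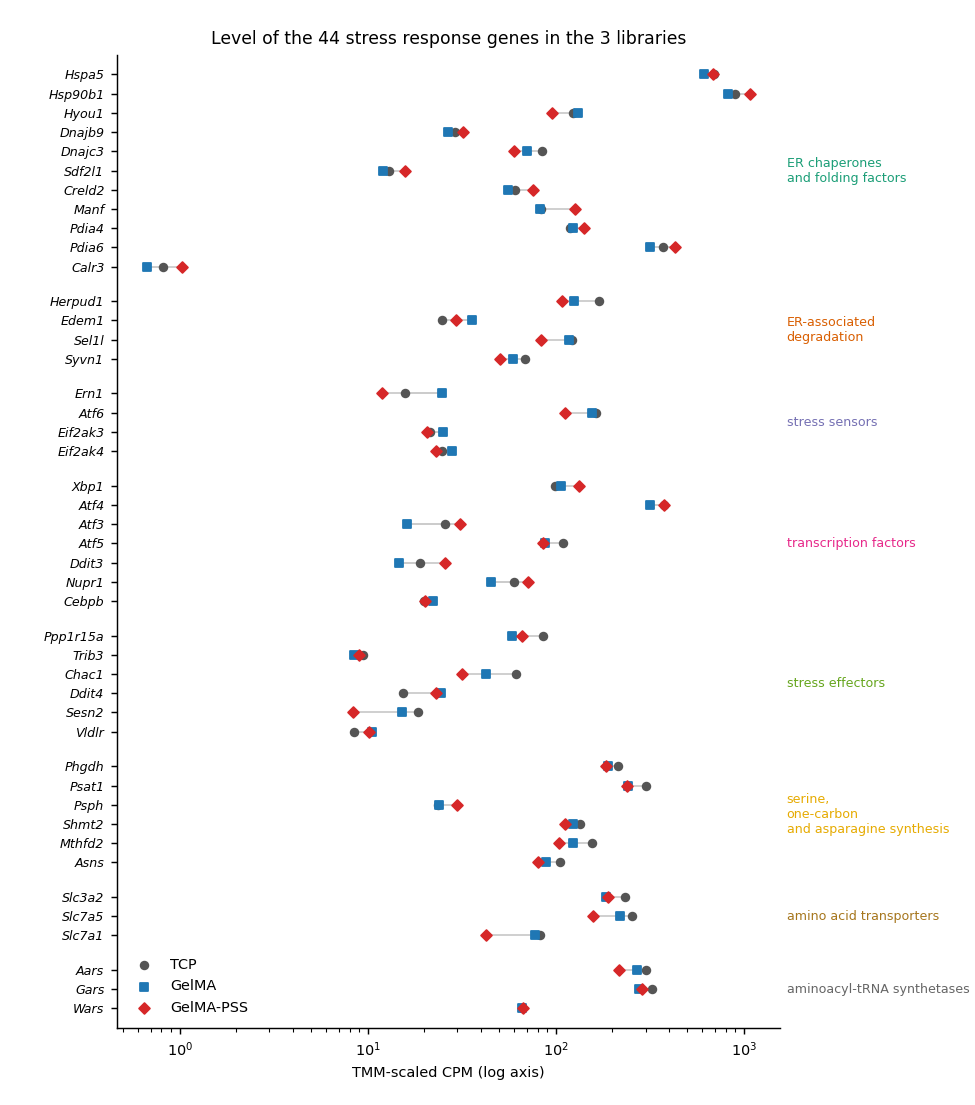
TMM-scaled level (CPM, log axis) of each of the 44 genes in TCP (grey circles), GelMA (blue squares) and GelMA-PSS (red diamonds), 1 library each, grouped by role. The 3 marks of most genes lie close together, from a factor of 1.02 between the highest and lowest library for Wars to 2.21 for Sesn2.

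The single gene past 2-fold was Sesn2 (chr4:132492032-132510501, minus strand, GRCm38 as annotated by GENCODE), which encodes sestrin 2, a leucine-binding stress protein that restrains mTORC1 signalling. Its level was 18.5 CPM (17.8 to 19.3, Wilson 95% interval) in TCP, 15.2 (14.4 to 16.0) in GelMA and 8.36 (7.95 to 8.79) in GelMA-PSS. The 3 intervals did not overlap, and GelMA-PSS was the lowest. On the log2 scale GelMA-PSS differed by -1.06 from TCP and by -0.79 from GelMA, and GelMA by -0.27 from TCP, and after a correction for transcript length and GC content the first was -0.95, short of 2-fold.

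Over all 44 genes the ratios centred slightly below those of all genes. The median log2 ratio was -0.03 in GelMA-PSS against GelMA, -0.08 in GelMA-PSS against TCP and -0.14 in GelMA against TCP, with 0.03, 0.04 and -0.01 over all genes. Genes with a negative ratio numbered 24, 25 and 32 of 44 in that order (54.5%, 56.8% and 72.7%, against 46.9%, 47.2% and 51.7% of all genes). TCP was the highest of the 3 libraries for 21 genes of the group, GelMA for 8 and GelMA-PSS for 15, while over all genes TCP was highest for 29.0%, GelMA for 25.7% and GelMA-PSS for 45.3%. The 3 comparisons share libraries, and are given side by side only.

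The ratios ran with transcript length, both over all genes and within the group. Over 13060 genes of known length, Spearman's rho of log2 ratio on length was -0.67 (GelMA-PSS against GelMA), -0.52 (GelMA-PSS against TCP) and 0.21 (GelMA against TCP). Across the 44 genes it was -0.62, -0.44 and 0.36. They run across genes that share their libraries, so that the points are not replicates. Since the transcripts of the group ranged from 829 bases (Nupr1) to 7971 (Vldlr), ratios after subtraction of smooth fits on length and GC content are given beside the others as corrected ratios. After the correction rho over all genes was -0.04, -0.04 and 0.01, and the medians of the group were -0.05, -0.15 and -0.15, with 28, 31 and 31 of 44 genes below 0 (63.6%, 70.5% and 70.5%, against 50.2%, 50.3% and 50.7% of all genes). The correction turned the sign of 14, 10 and 1 of the 44 ratios. Whether length itself or a property that goes with it sets this pattern was not tested.

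**Figure D2:**
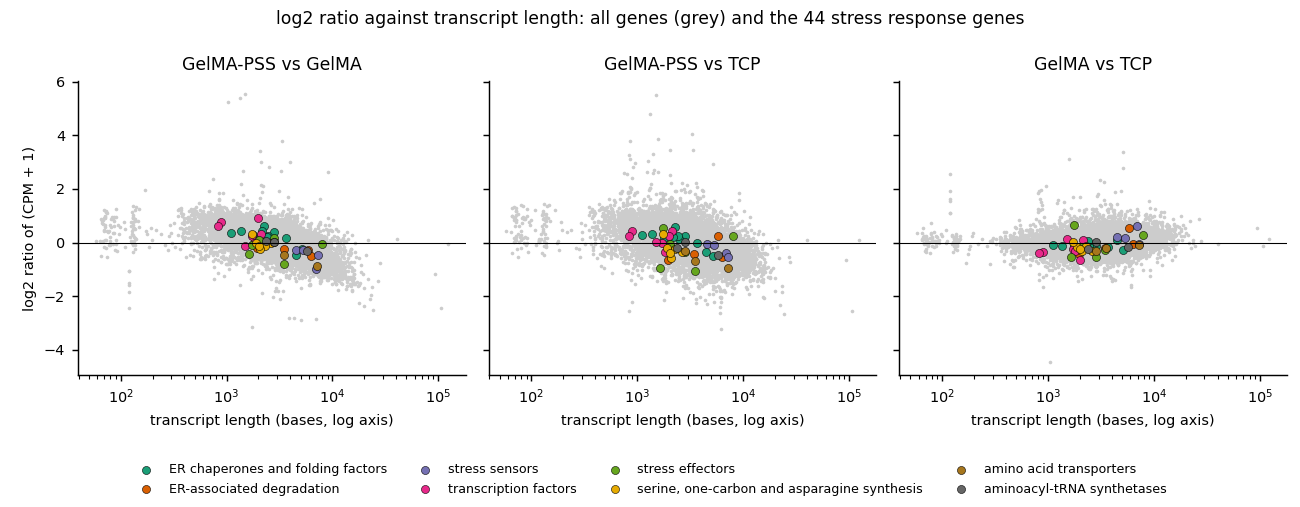
log2 ratio of (CPM + 1) against transcript length in bases (log axis) for all genes with a known length (grey) and the 44 stress response genes coloured by role, in the 3 comparisons. In both comparisons with GelMA-PSS the longer genes of the group, such as Ern1, Atf6 and Slc7a1, lie lower than the shorter ones, such as Ddit3 and Nupr1, along the slope of the grey cloud.

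The ER chaperones and folding factors were slightly higher in GelMA-PSS before the length correction and near 0 after it. Their summed level was 2478 CPM in TCP, 2258 in GelMA and 2742 in GelMA-PSS. A positive ratio was found for 9 of 11 against GelMA and 8 of 11 against TCP, where 46.9% and 47.2% of all genes were below 0. When corrected, 5 of 11 were positive in either comparison. The median log2 ratio was 0.28 and 0.22, and the corrected median -0.01 and -0.03. Against TCP, 9 of 11 were lower in GelMA, where 51.7% of all genes were, with a median of -0.12 (corrected -0.06).

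Hspa5 encodes BiP, the main Hsp70 chaperone of the ER, and is the usual reporter of ER stress. Its counts were 84490 in TCP, 55893 in GelMA and 124460 in GelMA-PSS, which gave 694 CPM (689 to 699), 615 (610 to 620) and 687 (683 to 691). The TCP and GelMA-PSS intervals overlapped and GelMA was lower. On the log2 scale GelMA-PSS differed by 0.16 from GelMA and by -0.01 from TCP, and GelMA by -0.17 from TCP, and the corrected ratios, 0.14, -0.03 and -0.16, were close to these. Thus the largest ratio between any pair of libraries for this gene was a factor of 1.13.

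Manf, a secreted protein released under ER stress, was the one chaperone gene past 1.5-fold. It stood at 83.4 CPM in TCP, 82.7 in GelMA and 126 in GelMA-PSS, so that both controls were level and GelMA-PSS was above them. In GelMA-PSS it was above GelMA by 0.61 and above TCP by 0.59 on the log2 scale (corrected 0.41 and 0.45), and the controls differed by -0.01. Hsp90b1, the ER form of Hsp90, had levels of 899, 821 and 1077 CPM in the same order, and Pdia6, a protein disulfide isomerase, 370, 318 and 430. The other isomerase, Pdia4, was higher than GelMA by 0.20 and than TCP by 0.24 on the log2 scale, and after correction these were -0.01 and 0.08. The corrected ratios to GelMA and TCP were 0.20 and 0.10 for Hsp90b1 and 0.20 and 0.04 for Pdia6. The short genes Sdf2l1 and Creld2 had ratios of 0.38 and 0.44 against GelMA, which became -0.05 and 0.07 when corrected. The BiP co-chaperone genes differed in sign, with Dnajb9 at 0.25 and Dnajc3 at -0.23 against GelMA, and Hyou1, a large Hsp70-like nucleotide exchange factor, was at -0.46. After correction these 3 lay at -0.05, -0.06 and -0.22. Calr3, a paralog of calreticulin, was the weakest gene of the group, with counts of 99, 61 and 187 and levels of 0.813 CPM (0.668 to 0.990), 0.671 (0.523 to 0.862) and 1.03 (0.895 to 1.19). Reads shared with Calr could reach it, and its level is uncertain for that reason.

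ER-associated degradation carries misfolded proteins back to the cytosol for destruction. All 4 of its genes had negative ratios in GelMA-PSS against GelMA before correction, from -0.49 to -0.22 on the log2 scale. When corrected, 3 of 4 were negative. Of all genes 46.9% were below 0 before the correction and 50.2% after it. Herpud1, a membrane scaffold of the retrotranslocation complex, had 169 CPM in TCP, 126 in GelMA and 108 in GelMA-PSS. It was past 1.5-fold against TCP with a log2 ratio of -0.65, and the corrected ratio was -0.83. Sel1l and Syvn1, the core of the ligase complex, had ratios of -0.55 and -0.44 against TCP (corrected -0.26 and -0.35). Edem1, a mannosidase-like lectin that extracts glycoproteins, had the opposite sign, with 24.7 CPM in TCP, 36.0 in GelMA and 29.4 in GelMA-PSS, and was highest in GelMA. Its ratio of GelMA-PSS to GelMA went from -0.29 to 0.03 with the correction.

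The stress sensors are long transcripts. All 4 were lower in GelMA-PSS than in GelMA before the correction (46.9% of all genes), at a median of -0.37. After it 2 of 4 were lower (50.2% of all genes), and the median was near 0 (-0.04). Ern1 (chr11:106394650-106487852, minus strand) had 1921 counts in TCP, 2245 in GelMA and 2165 in GelMA-PSS, or 15.8 CPM (15.1 to 16.5), 24.7 (23.7 to 25.7) and 11.95 (11.5 to 12.5). The intervals were separate, with GelMA highest and GelMA-PSS lowest. Its log2 ratio was -0.99 for GelMA-PSS against GelMA, just short of 2-fold, and -1.05 (-1.13 to -0.96, exact binomial) without the added 1 CPM, while the corrected ratio was -0.50. Against TCP, GelMA was higher by 0.62 (corrected 0.52), and GelMA-PSS stood at -0.37, which became -0.00 when corrected.
Atf6 had 163 CPM (160 to 165) in TCP, 156 (153 to 158) in GelMA and 112 (110 to 113) in GelMA-PSS. GelMA-PSS lay below both, with log2 ratios of -0.47 to GelMA and -0.54 to TCP, and the corrected values were 0.00 and -0.19. Eif2ak3 had 21.4 CPM (20.6 to 22.2) in TCP, 25.1 (24.0 to 26.1) in GelMA and 20.6 (19.99 to 21.3) in GelMA-PSS, with TCP and GelMA-PSS overlapping. Eif2ak4 had 24.9 CPM (24.0 to 25.8), 28.1 (27.0 to 29.2) and 23.2 (22.5 to 23.9) in that order, with GelMA above both others. For both kinases the ratio of GelMA-PSS to GelMA was -0.27 on the log2 scale, and the corrected ratios were -0.08 for Eif2ak3 and 0.01 for Eif2ak4.

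Of the 7 transcription factors, 5 had a positive ratio in GelMA-PSS against GelMA, where 46.9% of all genes were below 0. When corrected, 4 of 7 were positive, where 50.2% of all genes were below 0. The median was 0.32 and the corrected median 0.09. In GelMA against TCP 5 of 7 were negative before and after the correction (51.7% and 50.7% of all genes). The median there was -0.32 and the corrected median -0.26. Xbp1 encodes the factor downstream of IRE1, and its spliced and unspliced forms are pooled in a count per gene. It had 99.1 CPM (97.4 to 100.9) in TCP, 107 (105 to 109) in GelMA and 133 (132 to 135) in GelMA-PSS. In GelMA-PSS it was above GelMA by 0.32 and above TCP by 0.42 on the log2 scale (corrected 0.13 and 0.27).
Atf4, the hub of the amino acid arm, had 375 CPM (372 to 379) in TCP, 318 (314 to 322) in GelMA and 375 (373 to 378) in GelMA-PSS. TCP and GelMA-PSS could not be told apart at this depth, with a log2 ratio of 0.00 (-0.02 to 0.02 without the added 1 CPM), though the corrected ratio was -0.22. GelMA lay below TCP, with a log2 ratio of -0.24. Since ATF4 is controlled mainly by translation, its transcript does not give the amount of the protein.
Ddit3 encodes CHOP, the factor of prolonged ER stress, and had 18.9 CPM (18.1 to 19.7) in TCP, 14.7 (13.96 to 15.5) in GelMA and 25.7 (24.9 to 26.4) in GelMA-PSS. Set against GelMA its log2 ratio was 0.76, and against TCP 0.42, and with its transcript of 890 bases the corrected ratios were 0.25 and -0.01. The exons of Ddit3 overlap those of Mars on the opposite strand by 68 bases, and Mars stood at 193 to 200 CPM. Whether the counting used strand is not stated, so reads of Mars could add to the level of Ddit3. Atf3, an early stress-induced factor, had 25.9 CPM in TCP, 16.1 in GelMA and 31.0 in GelMA-PSS. It gave the highest ratio of the group against GelMA, 0.90 (corrected 0.66), and the lowest for GelMA against TCP, -0.65 (corrected -0.60), both of which rest on its low level in the GelMA library. Nupr1, a small stress-induced chromatin protein, was past 1.5-fold against GelMA at 0.63, which the correction brought to 0.09. Atf5 and Cebpb, a relative and a partner of ATF4, had ratios of -0.02 and -0.13 against GelMA.

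**Figure D3:**
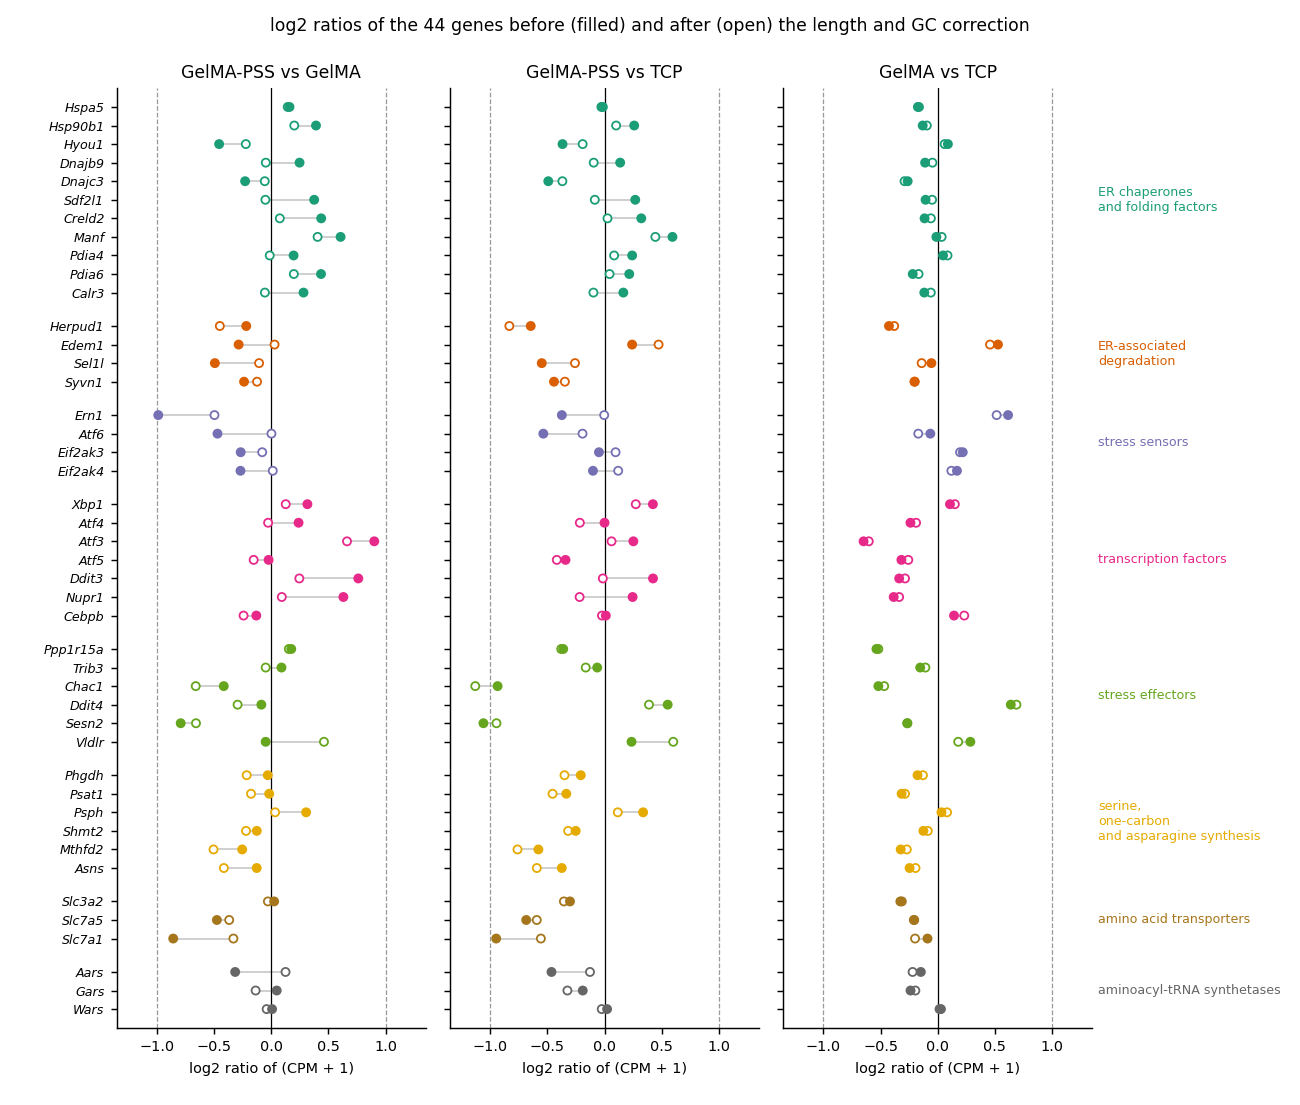
log2 ratio of (CPM + 1) for each of the 44 genes in the 3 comparisons, before (filled) and after (open) the correction for transcript length and GC content, with 2-fold marked by dashed lines. Sesn2 alone lies past a dashed line before correction, and Chac1 alone after it, both in GelMA-PSS against TCP.

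Among the effectors downstream of ATF4 and CHOP the signs were mixed. Chac1 (chr2:119351229-119354381, plus strand), which encodes a glutathione-degrading enzyme and is a sensitive target of ATF4, had counts of 7505, 3880 and 5752. Its level was 61.6 CPM in TCP, 42.7 in GelMA and 31.8 in GelMA-PSS, with separate intervals and GelMA-PSS lowest. The log2 ratio of GelMA-PSS to TCP was -0.94, and the corrected ratio of -1.13 lay past 2-fold. Ppp1r15a, which encodes GADD34, the phosphatase subunit that directs dephosphorylation of eIF2α, had 85.0, 58.3 and 65.9 CPM and was highest in TCP. Ddit4, an mTORC1 inhibitor also induced by hypoxia and glucocorticoids, had 15.4 CPM in TCP, 24.6 in GelMA and 23.1 in GelMA-PSS, so that both gels were above TCP, with a log2 ratio of 0.64 for GelMA. Vldlr, a lipoprotein receptor gene, was also lowest in TCP, at 8.44 CPM against 10.5 and 10.1. For this longest transcript of the group the correction moved the ratio of GelMA-PSS to GelMA from -0.05 to 0.46 and to TCP from 0.24 to 0.60. Trib3, a pseudokinase that dampens the response, ranged only from 8.41 to 9.46 CPM.

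The enzymes of serine, one-carbon and asparagine synthesis were lowest in GelMA-PSS and highest in TCP for 5 of 6 genes, with Psph as the exception. Over all genes GelMA-PSS was lowest for 39.35% and TCP highest for 29.0%, each counted on its own. The summed level of these enzymes was 935 CPM in TCP, 792 in GelMA and 753 in GelMA-PSS. Their median log2 ratio of GelMA-PSS to TCP was -0.29 (corrected -0.40). Asns, asparagine synthetase, whose element is shown above, had 105 CPM (103 to 107) in TCP, 88.4 (86.5 to 90.3) in GelMA and 80.8 (79.5 to 82.1) in GelMA-PSS. The 3 intervals were separate, and the log2 ratio of GelMA-PSS was -0.37 against TCP and -0.13 against GelMA (corrected -0.59 and -0.41), with -0.25 between the controls. Mthfd2, a mitochondrial folate enzyme, had 156, 124 and 104 CPM and a ratio of -0.58 against TCP (corrected -0.76). Phgdh and Psat1, which start serine synthesis, and Shmt2, which passes the serine carbon on to folate, had ratios of -0.21, -0.33 and -0.25 against TCP. For Phgdh and Psat1 the level intervals of GelMA and GelMA-PSS overlapped (log2 ratios of -0.03 and -0.02). Without the added 1 CPM, the exact binomial interval of the ratio was -0.057 to -0.004 for Phgdh and -0.042 to 0.005 for Psat1. The order of Psat1 between the gels is thus not settled. That of Phgdh holds narrowly, and against counting error only. Psph, the last step of serine synthesis, had 23.5, 24.1 and 30.0 CPM, but its exons overlap those of Cct6a on the opposite strand by 452 bases, and Cct6a was far more abundant, at 281, 268 and 328 CPM. The reads are described as strand-specific, but whether the counting used strand is not stated, so the overlap leaves the level of Psph uncertain.

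All 3 amino acid transporter genes were lower in GelMA-PSS than in TCP, before and after the correction (47.2% and 50.3% of all genes). Slc7a1, the cationic amino acid transporter, had 82.7 CPM in TCP, 77.7 in GelMA and 42.4 in GelMA-PSS. The controls were thus near each other and GelMA-PSS apart from both, with log2 ratios of -0.95 against TCP and -0.86 against GelMA, or -0.56 and -0.33 when corrected for a transcript of 7179 bases. Slc7a5 and Slc3a2, the light and heavy chains of the leucine transporter LAT1, had 255, 220 and 158 CPM and 234, 186 and 189 CPM. The light chain was lowest in GelMA-PSS (log2 ratio -0.68 against TCP), whereas the heavy chain was about level in both gels (0.03). Of the tRNA synthetases, Aars had 301, 271 and 218 CPM and Gars 327, 277 and 286, while Wars was between 65.8 and 66.8 CPM in all 3 libraries. The log2 ratio of Aars in GelMA-PSS was -0.32 to GelMA and -0.46 to TCP, and 0.12 and -0.13 when corrected. The Aars model overlaps Exosc6 by 1326 bases on the same strand, a gene at 7.58 to 10.3 CPM.

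Compared per length, as a length-scaled level (TPM) within the TCP library, Hsp90b1 was the most abundant of the 44 at 672, followed by Atf4 at 459, Hspa5 at 399 and Pdia6 at 359, and the sensors were far below at 47.4 (Atf6), 10.0 (Eif2ak3), 9.92 (Eif2ak4) and 4.79 (Ern1). Both kinases differed by less than their counting error. In the GelMA-PSS library Hsp90b1 was again first at 603 and Atf4 next at 345, and Pdia6 at 313 stood above Hspa5 at 296.

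When the genes were grouped by the element in their promoter, the 6 holders of the ER stress element had a median log2 ratio of 0.28 in GelMA-PSS against GelMA, 0.10 against TCP and -0.19 in GelMA against TCP, with corrected medians of 0.11, -0.00 and -0.17. In the last comparison all 6 were below 0, each by less than 1.5-fold (from -0.26 to -0.12). The 9 holders of the composite element had medians of -0.05, -0.19 and -0.25 (corrected -0.05, -0.22 and -0.22), and 8 of 9 were below 0 in GelMA against TCP, where 51.7% of all genes were.

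Other genes of these pathways, outside the 44, were examined by list. Of 20 other ER folding genes (among them Calr, Canx and P4hb) 0 passed 2-fold in any comparison, and 16 of 20 had a positive ratio in GelMA-PSS against either control (46.9% and 47.2% of all genes were below 0), with medians of 0.23 and 0.26 (corrected 0.13 and 0.19). Of 29 genes of ER quality control and translocation 28 were expressed, and 2 passed 2-fold, both higher in GelMA-PSS than in either control, where 1.77% and 3.72% of all genes were. These were Sec61b and Sec61g, the small subunits of the channel through which new proteins enter the ER. Sec61b had 31.2 CPM in TCP, 38.3 in GelMA and 78.3 in GelMA-PSS, and its log2 ratio was 1.01 to GelMA and 1.30 to TCP. Sec61g had 113, 115 and 261 CPM and ratios of 1.17 and 1.20. The Sec61b model is only 564 bases long and its corrected ratios were 0.32 and 0.69. For Sec61g, corrected with a model of 1862 bases, they were 0.80 and 0.91. The corrected ratios depend on the transcript taken for each gene. The medians of the list were 0.22 and 0.18, and 0.14 and 0.09 when corrected.
Of 18 other stress signalling genes 0 passed 2-fold, with medians of -0.06 against GelMA and -0.00 against TCP. Of 22 other amino acid response genes 21 were expressed, 1 was higher in GelMA-PSS past 2-fold against GelMA and 2 against TCP (1.77% and 3.72% of all genes), and 0 were lower. The medians of the list were -0.08 and -0.03, and -0.19 and -0.13 when corrected. Corrected ratios below 0 numbered 16 and 14 of 21 (76.2% and 66.7%, against 50.2% and 50.3% of all genes). At 1.5-fold 2 were higher and 2 lower against GelMA (11.0% and 10.8% of all genes). Against TCP 2 were higher and 4 lower (13.2% and 11.5%). The one gene higher past 2-fold against both controls was Gdf15, a secreted stress cytokine. It had 7.70 CPM in TCP, 8.92 in GelMA and 19.5 in GelMA-PSS, with log2 ratios of 1.05 and 1.24 (corrected 0.84 and 1.09). The other was Mthfd1l, a mitochondrial folate enzyme, at 39.7, 66.7 and 86.5 CPM with a ratio of 1.10 against TCP (corrected 1.15) and 0.37 against GelMA. Its direction was thus opposite to that of Mthfd2 and Shmt2 of the same pathway. Slc7a11 had 181 CPM in TCP, 153 in GelMA and 241 in GelMA-PSS, short of 2-fold before correction. Its log2 ratios were 0.65 to GelMA and 0.42 to TCP. Corrected with a model of 9223 bases, they were 1.24, past 2-fold, and 0.83. Of 17 other cytosolic tRNA synthetases 0 passed 2-fold, and 15 of 17 were below 0 in GelMA against TCP, at a median of -0.08, where 51.7% of all genes were below 0. After the correction 13 of 17 were, with 50.7% of all genes.

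**Figure D4:**
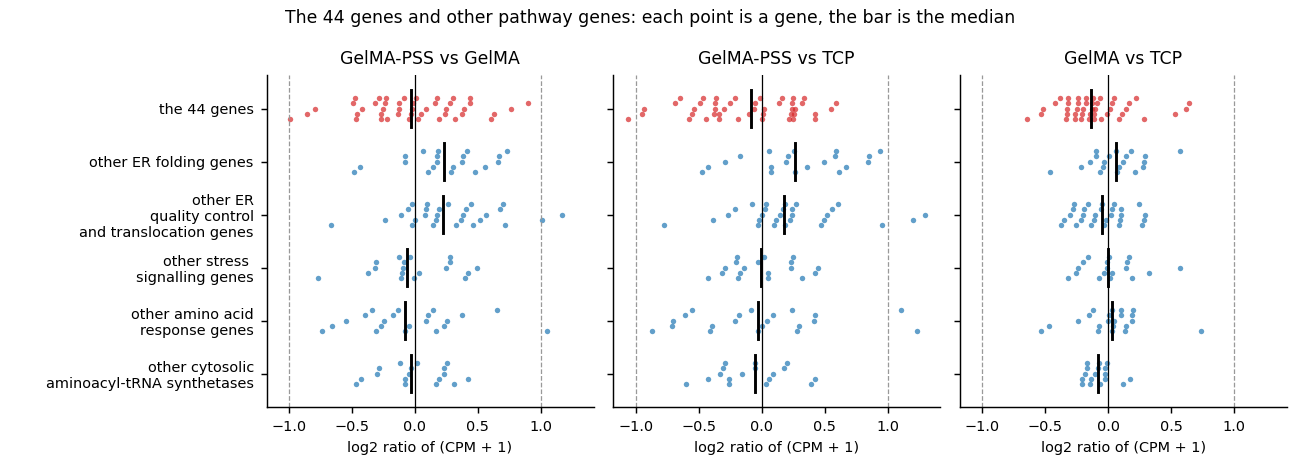
log2 ratio of (CPM + 1) in the 3 comparisons for the 44 genes (red) and 5 lists of other pathway genes (blue), each point a gene, the black bar the median and the dashed lines 2-fold. The folding and translocation lists centre right of 0 in both comparisons with GelMA-PSS (medians 0.18 to 0.26, and 0.09 to 0.19 after the length and GC correction, which is not drawn), and the 44 genes centre left of 0 in GelMA against TCP (-0.14).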

How the data were processed

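RNA was sequenced from C2C12 cells after 2 days on TCP, GelMA or GelMA-PSS, 1 library each. The authors deposited raw counts for each symbol, from 101 bp paired-end reads that the methods call strand-specific. The submitters' processing notes name TopHat, edgeR and the builds mm10 and hg19, with no versions or roles. The library kit differs between the labels and the methods, and the counting tool, its use of strand and whether both mates were counted are not given in the sources used here. If both were, the counting intervals are too narrow.

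The 23282 lines hold 35 repeated symbols, which were summed to 23238 symbols. TMM factors (edgeR 4.0.16, R 4.3.3) were 1.02, 1.04 and 0.943 for TCP, GelMA and GelMA-PSS, and 3 counts correspond to 0.0246, 0.0330 and 0.0166 CPM. The study used FPKM, which could not be used here. The filter kept genes reaching 1 CPM in any library. Intervals of levels are Wilson and of ratios exact binomial, at 95%, and treat reads as independent molecules. Lengths and GC content were read from the GENCODE vM21 annotation of GRCm38, using for each gene the transcript with the longest coding sequence (basic set preferred). Of the symbols, 22197 matched as given, 669 by an older symbol and 372 not at all. The correction subtracted 2 successive loess fits, first on length and then on GC content, with a span of 0.3 (statsmodels 0.14.6). Promoters came from RefSeq. The procedure was tested on simulated data in which 200 of 12885 genes were changed 4-fold in GelMA-PSS alone. In GelMA-PSS against GelMA and against TCP 100% were recovered and 0 unchanged genes were called. In GelMA against TCP, where no change had been put in, 0 genes were called. A 4-fold change lies well past the 2-fold threshold, so this recovery says nothing of smaller changes, which were not tested. Most ratios of the group were under 2-fold. With 1 library per substrate the spread between cultures could not be estimated, so the absence of false calls does not cover it.

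The 44 genes, the lists of other genes and the markers were chosen with earlier results of these data known. All 44 genes are accounted for by role; full values are given for those past 2-fold in any comparison and for Hspa5, Xbp1, Ern1, Atf6, Eif2ak3, Eif2ak4, Atf4, Ddit3 and Asns. Other genes were named within the 5 lists where they passed 2-fold, and Slc7a11 was named for its corrected ratio after its values were seen. Genes past 1.5-fold, and further values within each role, were named after their values were seen. A further list of markers is not reported here. Alternatives covered scaling, pseudocount, CPM filter, fold threshold and the length and GC correction.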

Additional observations from a re-analysis of the deposited data

How the results depend on the processing

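With 1 library per substrate no replicate could be left out. No paired analysis was possible because each substrate has 1 library. Scaling by total counts in place of TMM moved the median ratio of all genes from 0.03 to -0.10 in GelMA-PSS against GelMA and from 0.04 to -0.06 against TCP, and the median of the group to -0.18 and -0.21 (43 genes passed the filter). It put 2 and 3 genes of the group lower past 2-fold in those comparisons, and turned the median of the 3 tRNA synthetases against GelMA from 0.01 to -0.14. The medians of the other 7 roles, and of all 8 with median-of-ratios scaling, kept their sign. The length and GC correction turned those of the sensors (-0.24 to 0.05) and transcription factors (0.25 to -0.02) against TCP, of the chaperones against GelMA (0.28 to -0.01) and TCP (0.22 to -0.03) and of the tRNA synthetases against GelMA (0.01 to -0.04). It moved the median of the group against TCP to -0.15. Among the 10 genes given in full, it turned the sign of 7 of 30 ratios, in Atf6, Eif2ak3, Eif2ak4, Atf4 and Ddit3, and took Sesn2 to -0.95, so that Chac1 (-1.13) became the 1 gene lower past 2-fold against TCP. With a pseudocount of 0.1 the count lower in GelMA-PSS than in GelMA was 1 (Ern1, -1.04), and with 5 the count lower than TCP was 0 (Sesn2, -0.82). At 1.5-fold the counts higher and lower were 4 and 3, 1 and 5, and 2 and 1, in the order GelMA-PSS against GelMA, GelMA-PSS against TCP and GelMA against TCP. Both other filters, 3 counts in any library and 5 CPM, left all medians and counts of the group as they were within the counting error, with 43 genes at 5 CPM.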
